A study of Rattus norvegicus with 6 samples.

Results

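Iron handling genes were followed through the nuclei of rat brain after a permanent occlusion of the middle cerebral artery. The set held 10 genes with a place in iron transport, storage and sensing: Tf, Tfrc, Slc11a2, Slc39a14, Fth1, Hmox1, Slc40a1, Cp, Aco1 and Ireb2. They were listed by name with earlier results of these data known, so the choice was not blind to the values. By symbol, 9 of the 10 were among the 30560 genes of the files, and Slc40a1, the iron exporter ferroportin, was not analysed here. The single-nucleus RNA libraries came from male wild-type Wistar rats of 12 weeks, 48 h after the operation. The group Sham (4 rats) had gone through the operation without insertion of the filament. The rats with moderate infarctions (mMCAO, 3 rats) and with severe infarctions (sMCAO, 4 rats) had the artery of the right hemisphere closed. Nuclei from the rats of a group were pooled into 1 library per hemisphere, which gave Sham L and Sham R, mMCAO contra and sMCAO contra from the side opposite the infarction, and mMCAO ipsi and sMCAO ipsi from the infarcted side. The comparisons were made between Sham, MCAO contra and MCAO ipsi, with 2 libraries in each, so the libraries of a group were hemispheres of the same rats (Sham) or differed in severity (both MCAO groups), and p-values measure the spread between such libraries rather than between animals.

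In iron traffic, transferrin (Tf) carries ferric iron, the transferrin receptor (Tfrc) takes it into the cell, and Slc11a2 (DMT1) and Slc39a14 (ZIP14) move iron across membranes. Ferritin heavy chain (Fth1) stores iron in an oxidised form, heme oxygenase 1 (Hmox1) frees it from heme, and ceruloplasmin (Cp), a copper ferroxidase, works with ferroportin in its export. Aco1 and Ireb2 encode the iron regulatory proteins, which bind iron-responsive elements in the messages of ferritin and of the transferrin receptor. In the brain, oligodendrocytes are known as the main makers of transferrin, and the endothelium as the place where transferrin receptor takes iron from blood.

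Nuclei were assigned to a class when they carried at least 3 markers of exactly 1 non-neuronal class and few neuron transcripts. This gave 672, 250, 1549, 987, 970 and 1326 oligodendrocyte-gated nuclei in Sham L, Sham R, mMCAO contra, sMCAO contra, mMCAO ipsi and sMCAO ipsi. In the same order there were 93, 88, 275, 174, 376 and 537 astrocytes, 32, 31, 41, 21, 45 and 227 endothelial nuclei, and 9, 6, 110, 49, 403 and 495 microglia. Macrophages were absent from the gate in Sham, with 0 nuclei in both libraries, and numbered 10 and 21 in mMCAO contra and sMCAO contra and 153 and 774 in mMCAO ipsi and sMCAO ipsi. Oligodendrocyte precursors (OPC) and neurons were kept as points of reference. The gate used each class's own markers, so their presence in the class is no check of its name. Of markers the gate of that class did not ask for, erythrocyte markers summed to 1280 to 7260 CPM and mural cell markers to 269 to 2210 CPM in the endothelial sums. Nuclei that also passed the mural cell gate had been left out, which limited the mural sums beforehand. Of the 6 erythrocyte markers listed, 3 were among the genes counted. The libraries held 33012945 to 52513380 UMIs. Among the 73649 nuclei kept, 6118 (8.31%) had a barcode that occurred in more than 1 library. The library sMCAO ipsi stood apart from the rest, with mitochondrial UMIs averaging 0.396% per nucleus against 0.0605% to 0.1078% in the other libraries, and its values are given separately throughout.

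The results below turn on Tf, Cp and Tfrc, and the 250 bases before the annotated start of each are shown to place them beside the values. They are RefSeq sequences of the assembly GRCr8, which is not the build of the counts (mRatBN7.2), and the table held such a window for 7 of the 10 genes. Capitals mark matches, on either strand, to a TATA box (TATAAA) or to the core of the hypoxia response element (ACGTG). The Tf window lies on the minus strand at chr8:112695377-112695626, that of Cp on the plus strand at chr2:104368420-104368669, and that of Tfrc on the minus strand at chr11:81690319-81690568.
Tf: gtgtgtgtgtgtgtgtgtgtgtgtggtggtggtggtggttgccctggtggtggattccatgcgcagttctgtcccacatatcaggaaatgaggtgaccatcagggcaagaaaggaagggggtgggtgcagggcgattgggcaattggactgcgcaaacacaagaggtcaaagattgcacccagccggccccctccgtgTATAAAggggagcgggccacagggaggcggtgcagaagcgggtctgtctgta
Cp: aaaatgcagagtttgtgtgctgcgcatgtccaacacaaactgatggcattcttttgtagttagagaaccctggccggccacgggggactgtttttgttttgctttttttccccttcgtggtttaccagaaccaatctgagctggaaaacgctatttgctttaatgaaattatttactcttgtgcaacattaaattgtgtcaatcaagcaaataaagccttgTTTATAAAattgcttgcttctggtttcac
Tfrc: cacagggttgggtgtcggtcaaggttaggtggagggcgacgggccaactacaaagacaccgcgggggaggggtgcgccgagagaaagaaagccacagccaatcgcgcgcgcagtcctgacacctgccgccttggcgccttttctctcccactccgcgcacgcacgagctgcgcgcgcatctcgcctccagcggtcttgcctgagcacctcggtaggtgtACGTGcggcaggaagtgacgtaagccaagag
The Tf window held 1 TATA match, beginning 52 bases before the start, and the Cp window held 2 overlapping ones, the first 29 bases before it. Among all 33469 windows of this length, 12.9% held such a match. The Tfrc window held the hypoxia core once, 31 bases before the start, as did 16.6% of all windows at least once. Neither Tf nor Cp held it in this window, and none of the 3 windows held the letters TGANNNNGC (antioxidant response element), TGANTCA (AP-1) or TTCNNNGAA (STAT), which occurred in 34.7%, 6.34% and 7.67% of all windows.

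Transferrin was the iron gene of oligodendrocytes, and its level there rose in the infarcted hemisphere. Levels are given as counts per 1000000 UMIs of the class (CPM), and those of Tf in oligodendrocytes were 703.9 in Sham L and 577.2 in Sham R, 934.4 in mMCAO contra and 1001 in sMCAO contra, while mMCAO ipsi reached 1479 and sMCAO ipsi 3008. The 3 groups did not overlap, which 2 libraries in each can also show without a change, and the severe library stood at the top. Against Sham, the log2 fold change in MCAO ipsi was 1.80 ± 0.30 (SE, 2 libraries in each group; adjusted p = 0.0307, edgeR), where 2.05% of the 8810 genes tested in oligodendrocytes were called at an adjusted p under 0.05 and a log2 fold change of at least 0.6 in either direction. This call was lost without Sham L (adjusted p = 0.324), without Sham R (0.293), without mMCAO contra (0.0626), without sMCAO contra (0.0528) and in the fit of the 4 libraries compared (0.102). Against MCAO contra, the log2 fold change was 1.20 ± 0.29, and it did not pass (adjusted p = 0.157, with 0.0341% of genes called). The difference between MCAO contra and Sham was 0.60 ± 0.30 on the log2 scale and did not pass either (adjusted p = 0.662).

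The rise was also seen in the share of oligodendrocytes with a Tf transcript. After each nucleus was thinned to 1000 UMIs, Tf was found in 51 of 159 nuclei (32.1%) of Sham L and 13 of 40 (32.5%) of Sham R, in 41.7% and 39.2% of the nuclei of mMCAO contra and sMCAO contra, and in 47.8% and 75.8% of those of mMCAO ipsi and sMCAO ipsi. Thinning left out shallower nuclei, 513 and 210 in Sham L and Sham R and 786 and 483 in mMCAO ipsi and sMCAO ipsi. Without thinning, the shares were 38.5% and 33.2% in Sham, 48.9% and 48.8% in MCAO contra and 55.6% and 78.3% in MCAO ipsi. In neurons, which serve as a gauge of free RNA, the thinned share ran from 1.58% to 2.69%. Median depths were 665.5 to 1144 UMIs in oligodendrocytes and 2485 to 6837 UMIs in neurons. Free RNA can make up a smaller part of the UMIs of deeper nuclei, also after thinning, so this gauge may read too low. The oligodendrocyte markers themselves summed to 8700 to 11300 CPM in these nuclei. Tf UMIs per 100 marker UMIs were 7.27 and 6.64 in Sham, 8.78 and 8.83 in MCAO contra and 14.3 and 27.0 in MCAO ipsi. Tf thus rose relative to these markers. The nuclei had been gated by the same markers, which partly set the marker level beforehand, so the ratio is no independent check of the rise. The share of ribosomal protein UMIs in oligodendrocytes rose as well, as given below for Fth1. Its part in the Tf change was not tested.

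Tf rose in astrocytes as well, from a far lower level. The astrocyte levels of Tf were 37.5 and 16.4 CPM in Sham L and Sham R (3 UMIs and 1 UMI), 41.8 and 204.3 CPM in mMCAO contra and sMCAO contra, and 116.4 and 229.5 CPM in mMCAO ipsi and sMCAO ipsi. Both infarcted libraries lay above Sham, while sMCAO contra lay between them. Only MCAO libraries brought Tf past the filter on low counts in astrocytes, which limits what a call against Sham shows. The log2 fold change against Sham was 2.62 ± 0.83 (adjusted p = 0.0378), with 14.5% of the 5284 genes tested in astrocytes called. The call was lost without Sham L (adjusted p = 0.16), without Sham R (0.215), by DESeq2 (0.0854), under the stricter gate (0.17) and with nuclei of mixed identity kept (0.0871). Against MCAO contra the log2 fold change was 0.72 ± 0.43 and did not pass (adjusted p = 0.298). In these astrocytes the oligodendrocyte markers summed to 250 and 426 CPM in Sham, 212 and 281 CPM in MCAO contra and 201 and 165 CPM in MCAO ipsi. Nuclei that also passed the oligodendrocyte gate had been left out, which limited these sums beforehand. The part of oligodendrocyte RNA in the Tf change was not tested. After thinning, Tf was found in 1 of 14 and 0 of 7 astrocytes of Sham, in 2.86% and 14.3% of those of mMCAO contra and sMCAO contra, and in 7.94% and 8.25% of those of mMCAO ipsi and sMCAO ipsi, shares that did not follow the order of the levels and from which none is read. Tf UMIs per 100 oligodendrocyte-marker UMIs were 57.8 and 139.2 in astrocytes of the infarcted hemispheres, against 14.3 and 27.0 in oligodendrocytes and 33.3 and 42.8 in neurons of the same libraries. The gate also limited the marker UMIs of astrocytes and neurons in these ratios.

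Across the classes of the infarcted hemispheres, oligodendrocytes came first for Tf, above astrocytes by intervals that did not meet. In sMCAO ipsi the order went on through astrocytes (229.5 CPM), macrophages (149.3), microglia (102.3), endothelium (72.1), OPC (65.4) and neurons (30.6). The exact Poisson 95% intervals, which cover counting error only, met between macrophages and microglia, microglia and endothelium, and endothelium and OPC, and those of astrocytes and macrophages did not meet. The ratio of macrophages to microglia was 1.46, though, with an interval of 1.09 to 1.96 that left out 1. In mMCAO ipsi the neighbours from astrocytes (116.4 CPM) down to OPC (52.7) had meeting intervals. In OPC the log2 fold change of Tf against Sham was 0.61 ± 0.74 (adjusted p = 0.742), and in neurons it was 0.40 ± 0.14 (adjusted p = 0.0911).

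**Figure D1:**
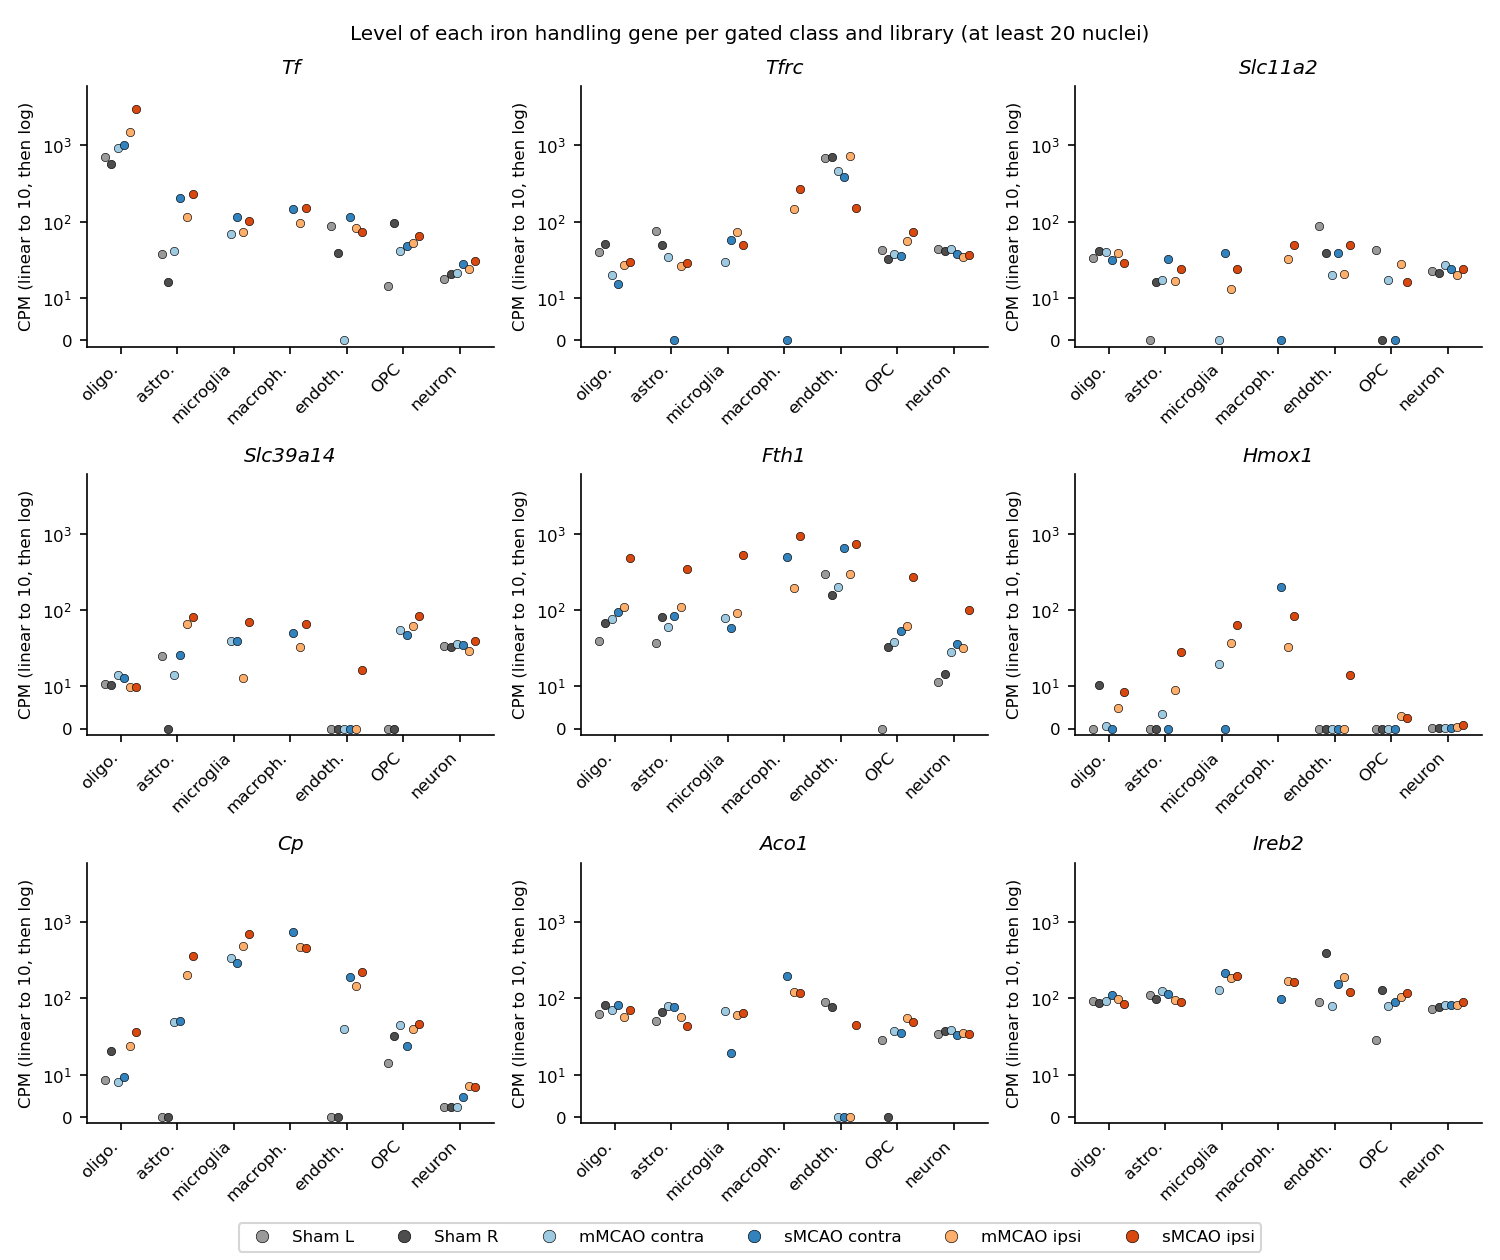
Levels of the 9 genes in CPM (vertical axes, linear up to 10 and logarithmic above) for each gated class (horizontal axes), with a point per library that held at least 20 nuclei of the class. Tf stands highest in oligodendrocytes, Cp in microglia and macrophages, Tfrc in endothelium except in sMCAO ipsi, where macrophages lead, and Fth1 is highest in sMCAO ipsi in each class.

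Ceruloplasmin showed the clearest gain, in astrocytes. In Sham no Cp UMI was found in 93 and 88 astrocytes, which leaves room for up to 21.3 CPM over both libraries (3 counts in their sum). In MCAO contra there were 48.8 CPM in mMCAO contra and 51.1 CPM in sMCAO contra, and in MCAO ipsi 205.0 CPM in mMCAO ipsi and 358.8 CPM in sMCAO ipsi. The 3 groups did not overlap, with the same limit of 2 libraries in each. Summed over its libraries, MCAO ipsi reached 316.8 CPM from 627 UMIs, at least 14.9-fold higher than Sham at that limit (adjusted p = 6.23e-05, edgeR). Folds given as at least set the group without a UMI at 3 counts and leave out counting error in the other group. The exact 95% interval of this ratio began lower, at 12.1. With no UMI in Sham, Cp entered the test through the MCAO libraries, where it was higher. Against MCAO contra the log2 fold change was 2.5 ± 0.34 (adjusted p = 7.25e-05, with 14.5% of genes called). Both calls held under every alternative tried, with log2 fold changes from 2.02 to 2.81 against MCAO contra, and with an adjusted p up to 0.00276 against Sham and up to 0.00988 against MCAO contra. MCAO contra, with 22 UMIs and 49.6 CPM, was at least 2.33-fold higher than Sham, a difference that did not pass (adjusted p = 0.286), though it passed without mMCAO ipsi (0.0448) or without sMCAO ipsi (0.0373) in the fit.

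The share of astrocytes with Cp after thinning was 10.1% in mMCAO ipsi (28 of 277 nuclei) and 21.2% in sMCAO ipsi (108 of 509), against 8 of 140 nuclei (5.71%) and 1 of 42 (2.38%) in MCAO contra. In Sham it was 0 of 14 and 0 of 7 nuclei, too few to read a share from. Without thinning it was 14.4% and 31.8% in mMCAO ipsi and sMCAO ipsi, 4.36% and 4.02% in MCAO contra, and 0 of 93 and 0 of 88 nuclei in Sham. In neurons the thinned share was 0.25% to 0.69%, at median depths of 2485 to 6837 UMIs against 635 to 2280 UMIs in astrocytes. As a gauge of free RNA it may again read too low. Microglia and macrophages also carry Cp, and their shared myeloid markers summed to 99.9 and 197 CPM in astrocytes of Sham, 195 and 217 CPM in MCAO contra and 151 and 142 CPM in MCAO ipsi. For 100 myeloid-marker UMIs, astrocytes of mMCAO ipsi and sMCAO ipsi held 135.4 and 252.9 Cp UMIs, against 5.45 and 6.84 in microglia and 5.91 and 5.42 in macrophages of the same libraries. Nuclei that passed both gates had been left out, so the myeloid markers in astrocytes were limited beforehand. The part of myeloid RNA in the Cp change was not tested.

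Myeloid cells held the highest levels of Cp. In microglia they were 336.0 and 290.9 CPM in mMCAO contra and sMCAO contra and 493.1 and 706.9 CPM in mMCAO ipsi and sMCAO ipsi. These groups did not overlap, which 2 libraries in each can also show without a change. The log2 fold change of 0.86 ± 0.28 did not pass (adjusted p = 0.537), and 0% of the 6382 genes tested in microglia were called in this fit, while 589 had an unadjusted p under 0.05 and DESeq2 called 0. The Sham libraries, with 9 and 6 microglia, did not enter. Macrophages held 478.3 CPM in mMCAO ipsi and 463.3 CPM in sMCAO ipsi, from 74 and 422 UMIs. On the opposite side they held 500.7 CPM in mMCAO contra (5 UMIs in 10 nuclei) and 742.0 CPM in sMCAO contra (15 UMIs in 21 nuclei, 95% interval 415.3 to 1224). Summed over libraries, the ratio of MCAO ipsi to MCAO contra in macrophages was 0.703, with a counting interval of 0.45 to 1.16 that held 1. In the infarcted hemispheres the order for Cp was microglia, macrophages, astrocytes, endothelium, OPC, oligodendrocytes and neurons in both libraries. The intervals of microglia and macrophages met in mMCAO ipsi but not in sMCAO ipsi, where the ratio of macrophages to microglia was 0.655 (95% interval 0.575 to 0.746).

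Cp was lower in the remaining classes. Oligodendrocytes held 8.80 and 20.6 CPM in Sham, 8.32 and 9.35 CPM in MCAO contra and 23.5 and 36.5 CPM in MCAO ipsi, with log2 fold changes of 1.34 ± 0.51 against Sham (adjusted p = 0.187) and 1.79 ± 0.40 against MCAO contra (adjusted p = 0.139), which did not pass. Endothelium had no Cp UMI in Sham and 146.4 and 219.0 CPM in mMCAO ipsi and sMCAO ipsi (7 and 79 UMIs), at least 4.19-fold more than Sham over both libraries, but the gene did not pass the filter on low counts there and was not tested. In neurons Cp rose from 2.42 and 2.43 CPM in Sham to 7.40 and 7.13 CPM in MCAO ipsi, a log2 fold change of 1.47 ± 0.27 (adjusted p = 0.0172, with 6.13% of 16467 genes called). That call was lost without Sham L (adjusted p = 0.188) or without Sham R (0.107). The 15 myeloid markers moved alongside in the neuron sums, from 20.8 and 24.8 CPM in Sham to 63.4 and 60.4 CPM in MCAO ipsi, and Cp UMIs per 100 myeloid-marker UMIs were 11.6 and 9.81 in Sham and 11.7 and 11.8 in MCAO ipsi. Their part in the neuronal change was not tested.

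**Figure D2:**
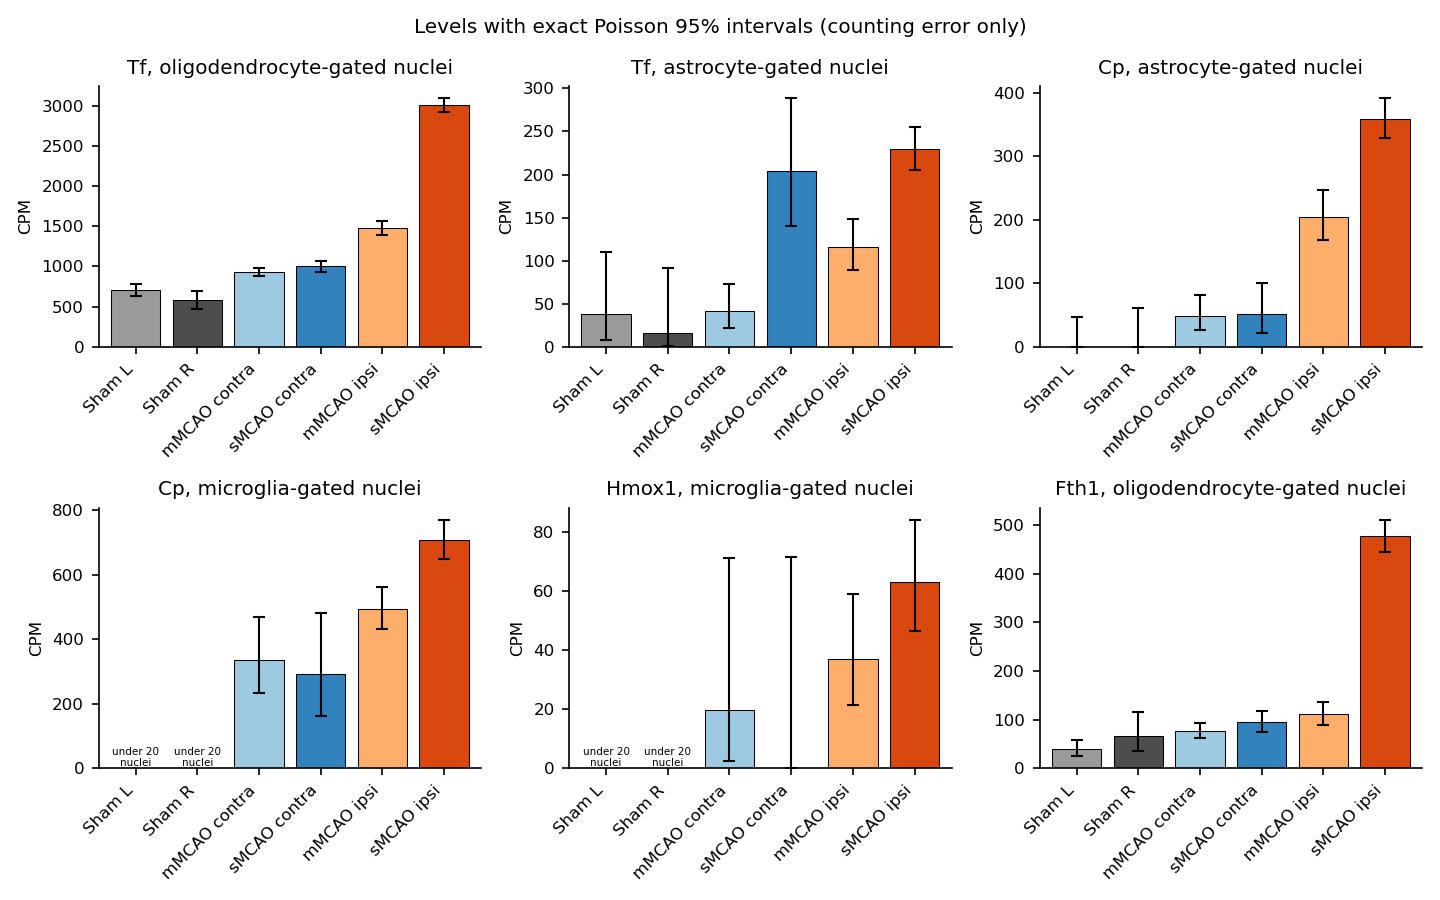
Levels in CPM (vertical axes from 0) of Tf, Cp, Hmox1 and Fth1 in the classes named above each panel, with a bar per library and exact Poisson 95% intervals. Tf in oligodendrocytes climbs from 577.2 CPM in Sham R to 3008 CPM in sMCAO ipsi, and Cp in astrocytes from no UMI in Sham to 358.8 CPM; libraries with under 20 nuclei are marked and not drawn.

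Hmox1 was sparse, and its highest levels were in myeloid nuclei. Macrophages held 32.3 CPM in mMCAO ipsi (5 UMIs) and 83.4 CPM in sMCAO ipsi (76 UMIs). The 21 macrophages of sMCAO contra held 197.9 CPM from 4 UMIs (95% interval 53.9 to 506.6), the highest level of any class and library with at least 20 nuclei, and the 10 of mMCAO contra held none. Summed over libraries, macrophages of MCAO ipsi held 76.0 CPM and those of MCAO contra 132.4 CPM, a ratio of 0.574 with a counting interval of 0.216 to 2.16. Microglia held 36.9 and 63.3 CPM there (17 and 47 UMIs), against 19.8 CPM in mMCAO contra (2 UMIs) and none in sMCAO contra, where 3 counts would be 58.2 CPM. The log2 fold change of 1.89 ± 0.92 in microglia did not pass (adjusted p = 0.554). Macrophages and microglia could not be told apart in their Hmox1 level, with ratios of 0.875 (0.252 to 2.47) in mMCAO ipsi and 1.32 (0.905 to 1.94) in sMCAO ipsi.

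Outside myeloid cells, astrocytes of sMCAO ipsi held 27.8 CPM of Hmox1 from 40 UMIs, 3.01 times (1.19 to 9.78) the 9.24 CPM in mMCAO ipsi. There was 1 Hmox1 UMI in the astrocytes of MCAO contra and none in those of Sham. The filter on low counts left Hmox1 out of the tests in astrocytes, oligodendrocytes, OPC and endothelium. In neurons it held 0.0734 to 0.249 CPM in Sham and MCAO contra and 0.414 and 0.847 CPM in MCAO ipsi, with log2 fold changes of 1.83 ± 0.60 against Sham (adjusted p = 0.079) and 2.05 ± 0.60 against MCAO contra (adjusted p = 0.0858). Only the MCAO ipsi libraries brought Hmox1 past the filter in neurons, as in microglia. It thus entered these tests through the group in which it was higher, which limits what they show. After thinning, Hmox1 was found in 4.03% of microglia in mMCAO ipsi and 7.18% in sMCAO ipsi, in 0 of 49 and 25 of 364 macrophages (6.87%), and in 0% to 0.0657% of neurons. With 3 counts as the limit, the 0 of 49 allows up to 6.12% of nuclei with an Hmox1 UMI at this thinned depth, which does not limit the share that express the gene. Before thinning, the shares were 4.22% and 8.48% of microglia and 3.27% and 7.88% of macrophages.

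Ferritin heavy chain was at its highest in sMCAO ipsi in each class, and it was called higher than in Sham in astrocytes, OPC and neurons. Microglia and macrophages were too few in Sham for this test. In oligodendrocytes Fth1 held 38.7 and 67.0 CPM in Sham, 76.3 and 94.6 CPM in MCAO contra, and 111.1 and 476.7 CPM in mMCAO ipsi and sMCAO ipsi. The groups did not overlap, which can again occur without a change. The log2 fold change against Sham of 2.66 ± 0.68 did not pass (adjusted p = 0.0766, edgeR), though DESeq2 called it (0.00109). In astrocytes the levels were 37.5 and 81.9 CPM in Sham L and Sham R, from only 3 and 5 UMIs. They were 59.2 and 83 CPM in MCAO contra and 109.0 and 346.3 CPM in MCAO ipsi. There the log2 fold changes of 2.04 ± 0.66 against Sham (adjusted p = 0.0417) and 1.77 ± 0.44 against MCAO contra (adjusted p = 0.0092) both passed. In OPC there was 1 Fth1 UMI in Sham, 37.9 and 53.4 CPM in MCAO contra and 62.0 and 271.7 CPM in MCAO ipsi, with a call against Sham (adjusted p = 0.0223; 6.07% of 5027 genes called) and against MCAO contra (log2 fold change 2.01 ± 0.47, adjusted p = 0.00341; 11.4% called). Summed over libraries, the OPC of MCAO ipsi held 211.2 CPM against 9.95 CPM in Sham, a ratio of 21.2 with a counting interval of 3.77 to 841.5. Only MCAO libraries brought Fth1 past the filter on low counts in OPC. It entered the test against Sham through libraries in which it was higher, which limits what that call shows. MCAO contra alone did not bring Fth1 past the filter in OPC, so the call against MCAO contra has the same limit. The OPC call against Sham had a value in 10 of 13 alternatives. Under the stricter gate Sham R held 8 OPC, so Fth1 in OPC was not tested against Sham there.

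In neurons Fth1 rose from 11.4 and 14.7 CPM in Sham to 32.2 and 98.7 CPM in MCAO ipsi, a log2 fold change of 2.17 ± 0.42 (adjusted p = 0.0192), and stood at 28.0 and 36.1 CPM in MCAO contra. MCAO contra against Sham was 1.17 ± 0.42 on the log2 scale and did not pass (adjusted p = 0.218), while without mMCAO ipsi (4.59e-05), without sMCAO ipsi (5.4e-05) or with the 4 libraries compared alone (0.000137) it did. MCAO ipsi against MCAO contra was 1.0 ± 0.40 (adjusted p = 0.183; 2.59% of genes called). Endothelium held 294.9 and 155.4 CPM in Sham, 200.8 and 651.7 CPM in MCAO contra, and 292.7 and 734.6 CPM in MCAO ipsi. Those groups overlapped, and the fold change of 1.32 ± 0.59 did not pass (adjusted p = 0.183; 9.95% of 1116 genes called). Macrophages of sMCAO ipsi held the highest Fth1 level, 935.4 CPM, beside 193.9 CPM in mMCAO ipsi and 494.7 CPM in sMCAO contra. Microglia held 79.1 and 58.2 CPM in MCAO contra and 91.2 and 521.1 CPM in MCAO ipsi. Their log2 fold change of 2.04 ± 0.98 did not pass (adjusted p = 0.554, edgeR; 0% of 6382 genes called). The ratio of macrophages to microglia was 2.13 (1.28 to 3.48) in mMCAO ipsi and 1.8 (1.59 to 2.03) in sMCAO ipsi.

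The size of the ferritin change rested on sMCAO ipsi. Without that library, the log2 fold change against Sham was 1.22 in oligodendrocytes, where it then passed (adjusted p = 0.0103), 0.96 in astrocytes (0.324), 2.59 in OPC (0.347) and 1.25 in neurons (3.35e-05, a call it kept). Against MCAO contra it was 0.66 in astrocytes (0.362) and 0.44 in OPC (0.838). The astrocyte call against Sham was also lost without Sham L (0.312), without Sham R (0.113), by DESeq2 (0.0976) and under the stricter gate (0.0801), and that against MCAO contra without mMCAO contra (0.215), by DESeq2 (0.0977) and among nuclei of at least 1000 UMIs (0.117). In OPC the call against Sham was lost without Sham L (0.497), without Sham R (0.117) and in the fit of the 4 libraries compared (0.0809), and that against MCAO contra without mMCAO contra (0.17), by DESeq2 (0.306) and among the deeper nuclei (0.0886). The neuronal call was lost without Sham L (0.21), without Sham R (0.102) and with the 4 libraries compared alone (0.0521).

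Transcripts that are abundant in cytoplasm moved with Fth1. UMIs of 91 ribosomal protein genes made up 0.0732% and 0.0897% of the oligodendrocyte sums in Sham, 0.0973% and 0.101% in MCAO contra, and 0.143% and 0.401% in mMCAO ipsi and sMCAO ipsi. Mitochondrial UMIs went from 0.0952% and 0.0943% in Sham to 0.156% and 0.358% in the same oligodendrocytes. In astrocytes the ribosomal share was 0.0724% and 0.0787% in Sham and 0.133% and 0.293% in MCAO ipsi, in OPC 0.089% and 0.0941% against 0.158% and 0.33%, and in neurons 0.0423% and 0.048% against 0.0605% and 0.112%. Tf in oligodendrocytes and Cp in astrocytes also rose over these libraries, with their highest levels in sMCAO ipsi. The part of these transcripts in the changes of Fth1, Tf and Cp was not tested.

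**Figure D3:**
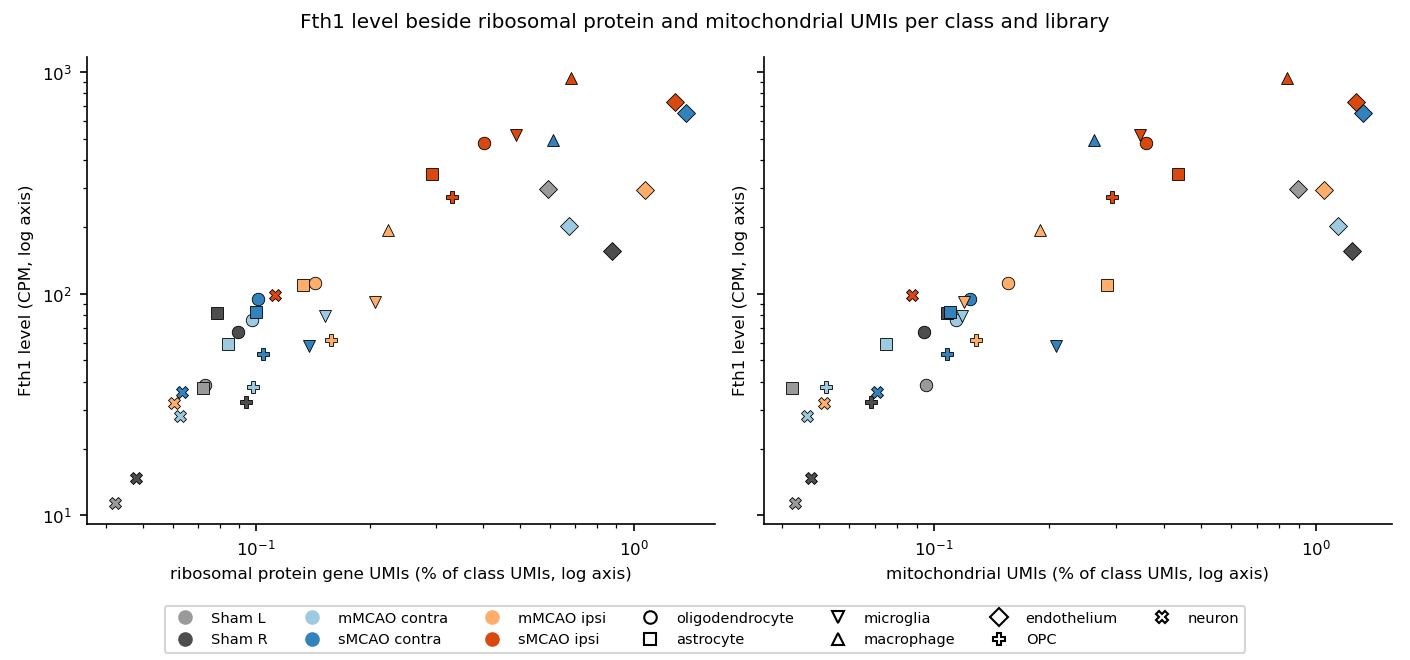
Fth1 level in CPM (vertical axes, logarithmic) against the share of class UMIs from ribosomal protein genes (left) and from mitochondrial genes (right), both on logarithmic axes, with a point per class and library of at least 20 nuclei and at least 1 Fth1 UMI. Within each class other than endothelium, sMCAO ipsi has the highest Fth1 level and the highest ribosomal share.

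The transferrin receptor was an endothelial gene in Sham, with 678.3 and 699.1 CPM in the endothelium of Sham L and Sham R against 40.5 and 51.5 CPM in oligodendrocytes and 74.9 and 49.2 CPM in astrocytes. In endothelium the levels were 461.9 and 383.4 CPM in mMCAO contra and sMCAO contra, 731.9 CPM in mMCAO ipsi and 149.7 CPM in sMCAO ipsi. The infarcted libraries thus lay on either side of the others, and neither the difference from Sham (−0.93 ± 0.57 on the log2 scale, adjusted p = 0.354) nor that from MCAO contra (−0.22 ± 0.59, adjusted p = 0.921; 0% of genes called, 166 with an unadjusted p under 0.05, and 2 called by DESeq2) passed. The level in sMCAO ipsi was 0.205 times that in mMCAO ipsi, with a 95% interval of 0.131 to 0.322 that covers counting error in 1 library each. The endothelial markers summed to 11900 CPM in mMCAO ipsi and 10100 CPM in sMCAO ipsi. The mural cell markers in the same libraries' endothelium went from 1340 to 269 CPM, and the erythrocyte markers, which ran from 1280 to 7260 CPM across the endothelial sums, were at 1280 and 2210 CPM. Their part in the Tfrc difference was not tested.

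On the myeloid side, Tfrc was higher in macrophages than in microglia, a direction that held under every gate tried in sMCAO ipsi only. The intervals below cover counting error only, in 1 library each. Macrophages held 148.6 CPM in mMCAO ipsi and 266.8 CPM in sMCAO ipsi, and microglia 73.9 and 49.8 CPM, with ratios of 2.01 (95% interval 1.13 to 3.52) and 5.36 (3.78 to 7.79). Among nuclei of at least 1000 UMIs the ratio in mMCAO ipsi was 0.883. Microglia of MCAO contra held 29.6 and 58.2 CPM, from 3 UMIs each, and the difference of 0.54 ± 0.60 between MCAO ipsi and MCAO contra did not pass (adjusted p = 0.80). In the other classes the direction varied. Tfrc was lower in MCAO ipsi than in Sham in neurons (34.9 and 36.1 against 44.0 and 41.2 CPM), with a log2 fold change of −0.38 ± 0.10 whose adjusted p of 0.0429 passed but whose size missed the 0.6 required for a call. In oligodendrocytes the change against Sham was −0.63 ± 0.32 (adjusted p = 0.328), in astrocytes −1.23 ± 0.71 (0.29), and in OPC 0.77 ± 0.70 (0.624).

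Slc39a14, an importer of iron not bound to transferrin, rose in astrocytes of the infarcted hemisphere. Its levels there were 25.0 CPM in Sham L (2 UMIs), none in Sham R, 13.9 and 25.5 CPM in mMCAO contra and sMCAO contra, and 66.5 and 81.4 CPM in mMCAO ipsi and sMCAO ipsi. The infarcted libraries lay above all others, and only they brought Slc39a14 past the filter on low counts in astrocytes. The gene thus entered the astrocyte tests through the group in which it was higher, which limits what a call shows. Against MCAO contra the log2 fold change was 2.0 ± 0.49 (adjusted p = 0.00768), and against Sham it was 2.36 ± 0.80 and did not pass (adjusted p = 0.0531). The call was lost without mMCAO contra (adjusted p = 0.273), without sMCAO ipsi (0.0994), by DESeq2 (0.104) and among the deeper nuclei (0.0595). In OPC no Slc39a14 UMI was found in the 65 and 37 nuclei of Sham, while MCAO contra held 55.1 and 47.5 CPM and MCAO ipsi 62.0 and 84.3 CPM. Over both libraries MCAO ipsi was at least 2.61-fold higher than Sham (adjusted p = 0.0207), a call that was lost without Sham L (0.425), without Sham R (0.0894) or without sMCAO ipsi (0.0782). With no UMI in Sham, Slc39a14 had entered that test through the MCAO libraries, where it was higher, which limits what the call shows. The call had a value in 10 of 13 alternatives, and none under the stricter gate, where Sham R held 8 OPC. The difference of 0.48 ± 0.38 between MCAO ipsi and MCAO contra did not pass in OPC (adjusted p = 0.491). In oligodendrocytes Slc39a14 stayed between 9.85 and 13.9 CPM in the 6 libraries, and in neurons between 29.0 and 39.4 CPM.

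The iron regulatory proteins had no call in oligodendrocytes, astrocytes, microglia, OPC and neurons, the classes in which they were tested, and Slc11a2 had none in oligodendrocytes and neurons. Ireb2 held 84.6 to 112.2 CPM in oligodendrocytes, 91.1 to 125.4 CPM in astrocytes and 72.0 to 90.0 CPM in neurons over the 6 libraries, with log2 fold changes against Sham of −0.01 ± 0.21, −0.22 ± 0.39 and 0.09 ± 0.06. Aco1 held 56.8 to 82.5 CPM in oligodendrocytes and 33.2 to 38.6 CPM in neurons, and in astrocytes it went from 80.1 and 76.6 CPM in MCAO contra to 57.3 and 43.1 CPM in MCAO ipsi, a log2 fold change of −0.73 ± 0.34 that did not pass (adjusted p = 0.172). Aco1 was higher in macrophages than in microglia, by 2.02 times (1.07 to 3.75) in mMCAO ipsi and 1.80 times (1.27 to 2.59) in sMCAO ipsi, though among nuclei of at least 1000 UMIs the ratio in mMCAO ipsi was 0.806. Slc11a2 held 29.0 to 41.2 CPM in oligodendrocytes and 19.8 to 27.0 CPM in neurons, and with UMI counts of 0 to 45 in the remaining classes it was tested in those 2 classes only.

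Counted over genes and classes, MCAO ipsi against Sham gave 8 calls among the 33 pairs tested, all higher in MCAO ipsi. They were Tf in oligodendrocytes, Tf, Cp and Fth1 in astrocytes, Fth1 and Slc39a14 in OPC, and Fth1 and Cp in neurons. MCAO ipsi against MCAO contra gave 4 calls among 41 pairs, also all higher: Cp, Fth1 and Slc39a14 in astrocytes and Fth1 in OPC. MCAO contra against Sham gave 0 calls among 33 pairs by edgeR and by DESeq2, where edgeR called 0% of the genes in each class, DESeq2 called 1 gene in oligodendrocytes and 92 in neurons, and 4 pairs had an unadjusted p under 0.05. Against Sham, 3 of 7 tested genes were called in astrocytes beside 14.5% of all genes, 2 of 7 in OPC beside 6.07%, 2 of 9 in neurons beside 6.13%, 1 of 8 in oligodendrocytes beside 2.05% and 0 of 2 in endothelium beside 9.95%. Against MCAO contra, 3 of 7 were called in astrocytes beside 14.5%, 1 of 7 in OPC beside 11.4%, 0 of 9 in neurons beside 2.59%, 0 of 8 in oligodendrocytes beside 0.0341%, and 0 of 8 in microglia and 0 of 2 in endothelium beside 0%. Genes that entered the tests through the groups in which they were high are among these counts, so the counts describe the pairs tested and not the set. Leaving out Sham L or Sham R left 1 of the 8 calls, that of Cp in astrocytes. MCAO ipsi is shared by the first 2 comparisons, and Sham and MCAO contra by the others, so their calls are not independent of each other. The median log2 fold change of the tested members against Sham was −0.06 in oligodendrocytes, 2.04 in astrocytes, 1.14 in OPC and 0.09 in neurons, beside medians of 0.03, 0.04, 0.09 and 0.01 over all genes tested.

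**Figure D4:**
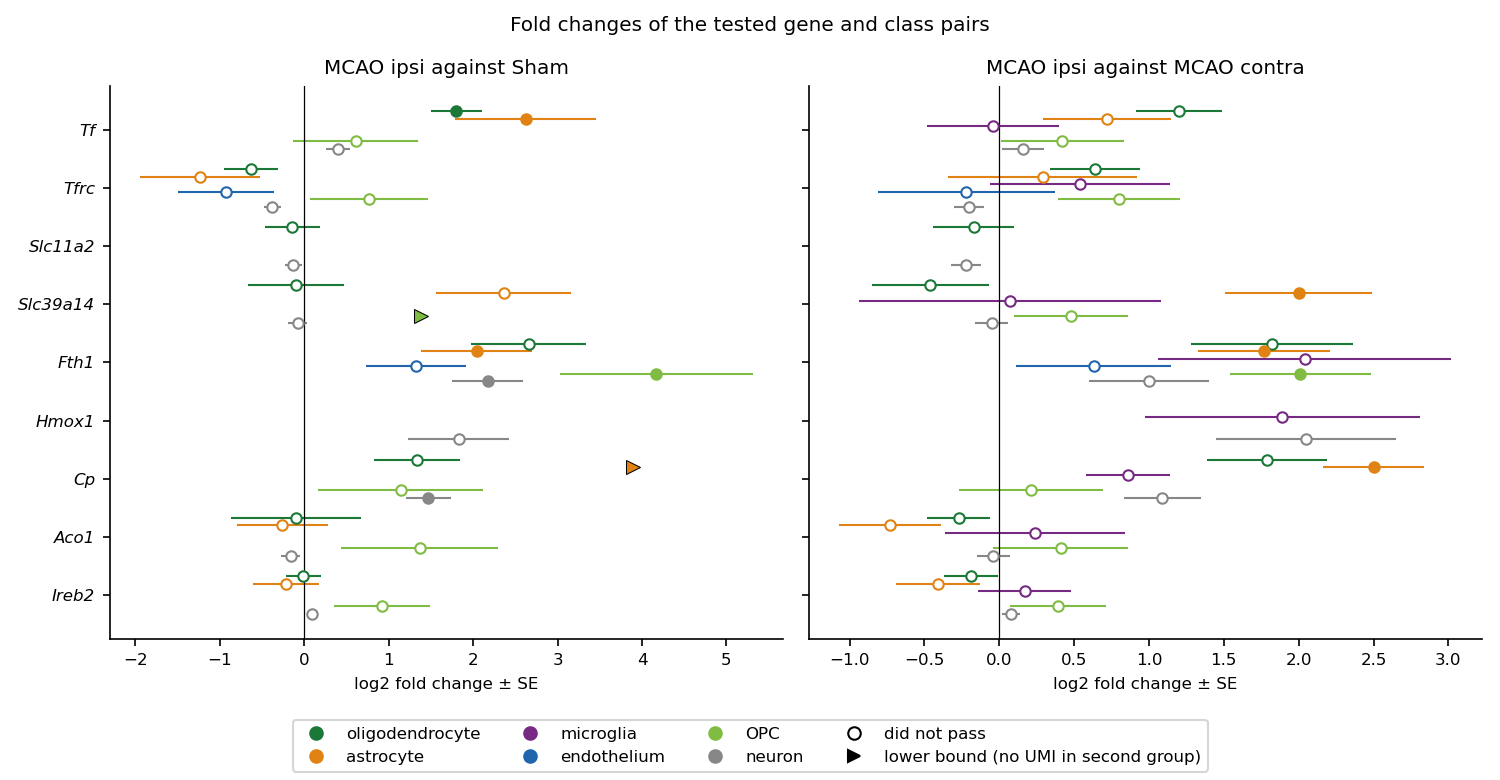
Log2 fold changes ± SE (horizontal axes) of the tested gene and class pairs for MCAO ipsi against Sham (left) and MCAO ipsi against MCAO contra (right), with filled circles for pairs that passed and open circles for pairs that did not. Triangles give the lower bound where the second group had no UMI and was set at 3 counts, without counting error in the first group. Examples are Cp in astrocytes (at least 14.9-fold) and Slc39a14 in OPC (at least 2.61-fold), both called.

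Between the infarcted libraries, sMCAO ipsi exceeded mMCAO ipsi in some genes and not in others. Fth1 was higher in all 7 classes, by 2.51 times (1.47 to 4.65) in endothelium up to 5.71 times (4.15 to 8.05) in microglia. Tf was 2.03 times (1.91 to 2.17) higher in oligodendrocytes and 1.97 times (1.5 to 2.62) in astrocytes. Cp was 1.75 times (1.42 to 2.17) higher in astrocytes and 1.43 times (1.22 to 1.68) in microglia, while in macrophages its ratio was 0.969 (0.755 to 1.26). Slc39a14 was 5.27 times (2.26 to 15.0) higher in microglia. The ratios of Ireb2 ran from 0.648 in endothelium to 1.13 in OPC, and outside neurons (1.10, 1.04 to 1.16) each interval held 1. With 1 library per severity these ratios have no replicate check. The intervals treat UMIs as independent and cover counting error only.

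**Figure D5:**
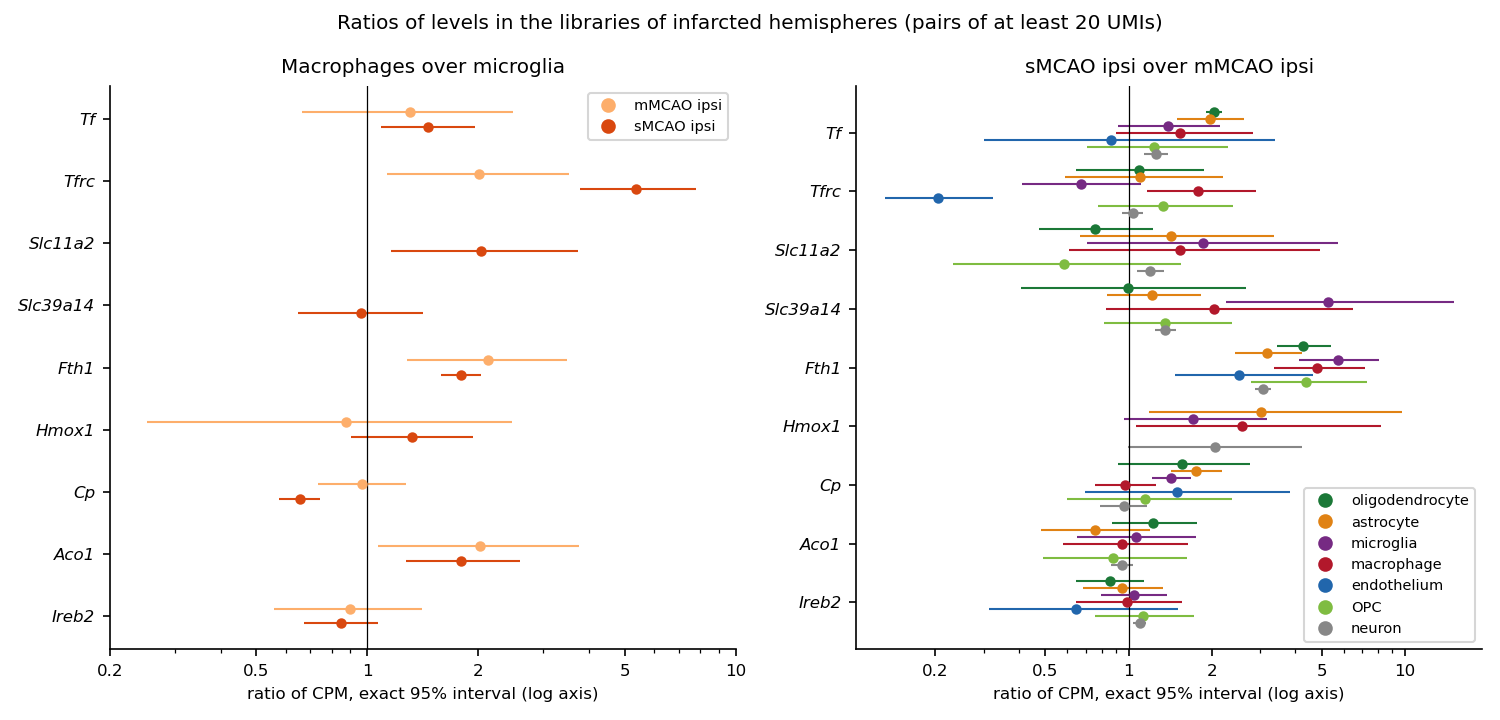
Ratios of CPM with exact 95% intervals (horizontal axes, logarithmic) for macrophages over microglia in both infarcted libraries (left) and for sMCAO ipsi over mMCAO ipsi in each class (right), for pairs with at least 20 UMIs. Tfrc and Fth1 lie above 1 for macrophages in both libraries, and Fth1 lies above 1 in all 7 classes for severity.

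Other genes of iron biology were taken from 7 lists with 65 genes in the files: uptake and reduction, storage and turnover, heme uptake and breakdown, heme synthesis, export and the hepcidin axis, mitochondrial iron and iron-sulfur assembly, and peroxide defence. In oligodendrocytes 0 of 35 tested genes were called against Sham, where 2.05% of all genes were, with a median log2 fold change of 0.24 beside 0.03 over all genes. In OPC 0 of 11 were called beside 6.07% of all genes, and in endothelium 0 of 2 beside 9.95%. In astrocytes 2 of 20 were called beside 14.5% of all genes, and in neurons 3 of 56 beside 6.13%, shares that did not exceed those over all genes, with medians of 0.26 and 0.09 beside 0.04 and 0.01. Slc7a11, the cystine importer that feeds glutathione synthesis, rose in astrocytes from 199.8 and 114.7 CPM in Sham to 375.0 and 354.7 CPM in MCAO ipsi (log2 fold change 1.14 ± 0.32, adjusted p = 0.0181), a call that was lost without Sham R (0.212), by DESeq2 (0.0776) and under the stricter gate (0.0762). In neurons Slc7a11 rose from 26.7 and 29.3 CPM in Sham and 28.6 and 28.5 CPM in MCAO contra to 88.3 and 90.6 CPM in mMCAO ipsi and sMCAO ipsi, by 1.56 ± 0.07 against Sham (adjusted p = 0.000237) and 1.66 ± 0.07 against MCAO contra (adjusted p = 7.41e-05), and both calls held under every alternative tried.

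Nfs1, the desulfurase of iron-sulfur assembly, fell in astrocytes from 137.3 and 278.6 CPM in Sham and 195.1 and 191.5 CPM in MCAO contra to 103.4 and 96.0 CPM in MCAO ipsi. The log2 fold changes were −1.04 ± 0.34 against Sham (adjusted p = 0.0452) and −1.0 ± 0.26 against MCAO contra (adjusted p = 0.011). The call against Sham was lost in 9 of the 12 alternatives, among them leaving out Sham R (0.582), and that against MCAO contra without mMCAO contra (0.154) and by DESeq2 (0.0886). Nfe2l2, the regulator of antioxidant genes, rose in neurons from 0.514 and 1.06 CPM in Sham to 1.81 and 3.12 CPM in MCAO ipsi (1.52 ± 0.41, adjusted p = 0.047), and Slc11a1, an iron transporter of phagocytes, from 0.245 and 0.312 CPM to 0.647 and 1.07 CPM (1.47 ± 0.40, adjusted p = 0.0479). Each of these calls against Sham was lost without any 1 of the libraries Sham L, Sham R, mMCAO contra, sMCAO contra or sMCAO ipsi, with adjusted p-values of 0.0517 to 0.33. Against MCAO contra, Slc11a1 passed as well (1.75 ± 0.40, adjusted p = 0.0463) but not with the rat pool as a block (0.0701), and this call was lost in 8 of 14 alternatives in all. The myeloid markers in the neuron sums rose over the same libraries, as given for Cp.

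The genes most alike in pattern were sought over the 37 sums of class and library with at least 20 nuclei, among 12622 genes with at least 200 UMIs, by Pearson correlation of log2(CPM + 10). For Tf they were Tsnax (r = 0.88), Cyp2j10 and Kif13b (both 0.86), for Cp Tcirg1 (0.89) and Slfn13 (0.87), and for Hmox1 Tlr4 (0.90), Cebpb and Tmem154 (both 0.88). These sums share libraries and classes, so the correlations are descriptions and have no test, and that of Hmox1 rests on 284 UMIs.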

How the data were processed

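The deposited values were raw UMI counts per gene and nucleus, made by the authors from single-nucleus libraries of a 10x 5′ kit with Cell Ranger 7.0.0 against mRatBN7.2 (tool and build from the submitters' processing notes and the study's methods, which count introns). Nuclei with at least 500 UMIs, 250 to 5000 genes and at most 5% mitochondrial UMIs were kept. A nucleus entered a non-neuronal class with at least 3 markers and 20 marker UMIs per 10000 of exactly 1 class and under 30 neuron-marker UMIs per 10000, and the neuron class with at least 4 markers and 30 per 10000. These thresholds were set after the data were seen. Nuclei of the myeloid gate were split into microglia and macrophages by the marker list with more UMIs, without a minimum lead. No doublet caller was run, and nuclei that passed several gates were left out. The gated names are rebuilt and not the authors' annotation.

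UMIs were summed per library and class. Classes with at least 20 nuclei in each library of both groups were tested by edgeR 4.0.16 (filterByExpr, TMM, quasi-likelihood F test) in a fit of all usable libraries, with Benjamini-Hochberg adjustment over the genes of a class and comparison. Genes were called when the adjusted p was below 0.05 and the log2 fold change was 0.6 or more in size. SEs were derived from the p-values. DESeq2 1.42.0, R 4.3.3, Python 3.11.15, numpy 2.4.6, scipy 1.17.1, pandas 2.3.3 and matplotlib 3.10.9 were used. The fit against Sham was tried on simulated counts with 1 fixed spread for all genes, set by hand and not estimated from these data. Each gene had the same mean level in the libraries of a group, unlike the 2 severities here, so recovery in the real data may be lower. The fit recovered 9.57% of 2-fold and 59.1% of 4-fold changes in OPC, and 31.9% and 77.3% in astrocytes. In neurons, where recovery was highest, it found 60.6% and 94.8%. A gene that was not called is thus not shown to be unchanged. All members were described, and of the iron lists the called genes with the largest changes, up to 4 per list, class and comparison. The members and lists were chosen with earlier results of these data known. Alternatives were RLE size factors, DESeq2, no filter on low counts, only the libraries compared, a stricter gate of 4 markers, mixed nuclei kept, nuclei of at least 1000 UMIs, a block and leaving out each library, and the ratios under other gates were added after seeing the data. Ipsi and contra libraries of the same name come from the same rats, which pairs them, and the correlation of their deviations from the group means ran from −0.25 in microglia to 0.20 in neurons. Levels here are relative to the UMIs of the class and do not give the amount of RNA per cell. Counts of nuclei are those captured and gated, not those in the tissue. Of the genes most alike in pattern, 1 is not reported here.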

Additional observations from a re-analysis of the deposited data

Results flagged for a closer look

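The change of Tfrc against Sham went in opposite directions between classes. It was 0.77 on the log2 scale in OPC, −0.63 in oligodendrocytes and −1.23 in astrocytes. None of these changes passed on its own, and the difference between the classes was not tested.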

How the results depend on the processing

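The 39 changes recomputed under the alternatives were those of members with an unadjusted p under 0.05 (edgeR) and the called genes of the iron lists. All 500 values kept their direction, which this choice and the shared libraries made likely beforehand. The 8 calls of MCAO ipsi against Sham became 5 by DESeq2, 5 with the libraries compared alone, 5 under the stricter gate and 3 among nuclei of at least 1000 UMIs, where astrocytes, OPC and endothelium of Sham gave no value, and they ranged from 1 to 14 when a library was left out (1 without Sham L, 1 without Sham R, 14 without mMCAO ipsi). The 4 calls against MCAO contra became 12 without the filter on low counts and 1 among the deeper nuclei, and ranged from 1 to 15 (1 without mMCAO contra, 2 without sMCAO ipsi, 15 without mMCAO ipsi). The 0 calls of MCAO contra against Sham became 2 without the filter and 1 with the libraries compared alone, and ranged from 0 to 2 (2 without mMCAO ipsi and 2 without sMCAO ipsi). The cause of these shifts was not tested. With the rat pool as a replicate block there were 4 calls against MCAO contra, and the block changed no member's call. Of 87 recomputed ratios, 78 stayed inside the main interval, 7 fell outside it and 2 turned direction. The latter were macrophages over microglia in mMCAO ipsi among the deeper nuclei, 0.883 for Tfrc and 0.806 for Aco1. Depth limited Hmox1 most, with 284 UMIs over the 37 sums.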
